A study of Rattus norvegicus with 49 samples.

Results

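Kidneys were examined in rats of the outbred Harlan Sprague Dawley stock, all male, after gavage with propylene glycol phenyl ether, a glycol ether used as a solvent. The arrays were chosen by sample title, 4 of kidney at 1000 mg/kg and 5 of kidney at 0 mg/kg, which makes 9 of the 49 arrays of the series. Both groups received corn oil at 5 mL/kg on 5 consecutive days, with compound in the first group and none in the second, and tissue was taken the day after the last dose. The animals were 6 to 8 weeks old at assignment, were housed 5 per cage and ate the NTP-2000 diet. Other kidneys of the series came from rats given 1, 10, 100 or 500 mg/kg, and no tissue came from the 2000 mg/kg group, whose animals became moribund before dosing ended. The treatment text of the labels names another compound, MCHM, and the compound of the titles and sample characteristics is followed here. The labels name no region of the kidney and call the samples biological replicates, without saying which animals shared a cage. Each p-value therefore measures the spread between samples, estimated from all 24 kidney arrays of the series.

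Values are RMA log2 levels of 1 probe set per gene for 14217 genes, and a gene is called where its limma p-value, adjusted by the Benjamini-Hochberg method over all of these genes, is under 0.05. A difference of 1 on this scale is a 2-fold difference. Array medians lay between 6.70 and 6.75 in the vehicle group and between 6.62 and 6.74 at 1000 mg/kg. The tissue label was checked on probe sets of kidney and liver genes. Umod, the uromodulin of the thick ascending limb, read 12.5 to 13.2 on the 9 kidney arrays and 3.65 to 4.97 on the liver arrays of the series. Lrp2, the megalin of the proximal tubule, read 12.3 to 12.7 and 6.51 to 7.12, Aqp2, the water channel of the collecting duct, 9.81 to 10.6 and 4.17 to 5.88, and Nphs1, the nephrin of podocytes, 5.58 to 6.49 and 2.42 to 3.35. Alb, the albumin made by hepatocytes, read 3.59 to 5.01 on kidney arrays and 14.5 to 14.7 on liver arrays. Each kidney gene was higher, and albumin lower, on every one of the 9 arrays than on any liver array.

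The kidney is a mixture of tubule segments, glomeruli, vessels, stroma and resident immune cells. In a young rat some tubule, endothelial and stromal cells still divide, and genes of mitosis are expressed mainly in dividing cells. Cyclins A and B activate the kinase Cdk1 to drive entry into mitosis, the anaphase-promoting complex with Cdc20 then destroys securin and the cyclins, and kinesins and the centralspindlin complex divide the cell. The proximal tubule carries much of the metabolism of the organ: it oxidises fatty acids, makes glucose, degrades amino acids and conjugates foreign compounds with glutathione or sulfate.

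At 1000 mg/kg 72 genes were higher and 148 lower than with vehicle, together 220 or 1.55% of the genes tested, 0.506% higher and 1.04% lower. The changes were small for most: the median was 0.45 among the higher and -0.56 among the lower on the log2 scale, 16 and 70 genes changed at least 1.5-fold, and 3 and 28 at least 2-fold. The arrays of the 2 groups did not overlap for 194 of the 220, and for 4.71% of all genes. The largest falls were in genes of cell division, the cyclooxygenase Ptgs2 and the matrix protein Mfap4, and the largest rises in Dmrtc1c1, the ribosome assembly factor Gtpbp4, the glutathione transferases Gstm1 and Gsta3, the tocopherol carrier Ttpa and Bhmt, an enzyme of methionine synthesis. Of the called genes 79 belonged to 1 or more of the 64 gene lists used here and 141 to none. At an unadjusted p under 0.05, 677 genes were higher and 1219 lower.

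The share of higher genes depended on the scaling of the arrays. With RMA values as deposited, 32.7% of the called genes were higher. After a further quantile normalization 100 were higher and 134 lower, or 42.7% higher, and after centring each array on its median 138 were higher and 107 lower, or 56.3% higher, while the median change of all genes went from -0.02 to 0.03 with centring. Of the 220 genes, 196 and 179 were called in these fits. With 1 array left out, the total fell to 130, 128 and 139 without vehicle replicates 2, 3 and 4 and to 97 without replicate 3 at 1000 mg/kg. Without replicate 1 at 1000 mg/kg 97 genes were lower, without replicate 2 there 43 were higher, and without vehicle replicate 5, 112 were higher. Where the 2 groups were fitted alone, without the arrays of other doses, 110 genes were called.

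**Figure D1:**
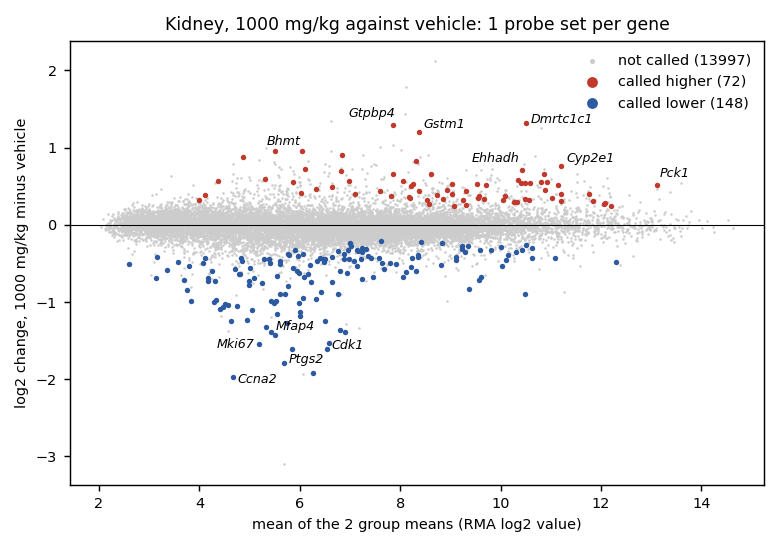
Log2 change at 1000 mg/kg against vehicle for each of 14217 genes (y axis) by the mean of both group means as an RMA log2 value (x axis); red points are the 72 genes called higher, blue points the 148 called lower and grey points the 13997 not called. The lower genes reach further from 0 than the higher ones, from Ccna2 at -1.97 to Dmrtc1c1 at 1.31 among those named.

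Genes of mitosis were lower in all 4 kidneys at 1000 mg/kg. Of 50 measured genes of this list 36 fell and none rose, against 1.04% of all genes called lower, and the list had a median of -0.96 against -0.02 for all genes. The count was 37 with quantile normalization and 36 with centred arrays. Averaged over the list, the vehicle arrays deviated from their own mean by -0.18 to 0.26 and the 1000 mg/kg arrays by -1.03 to -0.70. Of the 50 genes 41 had arrays that did not overlap between the groups, lower at 1000 mg/kg, against 3.09% of all genes. The list was chosen with earlier results of these arrays known, so its count is a description and not independent evidence.

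The promoters of several genes of this list are printed because its members moved together and share short sequence elements. The cell cycle genes homology region, or CHR, is an element bound by the MuvB core of the DREAM complex, and CCAAT boxes are bound by NF-Y. The 300-base RefSeq window around each start site was searched on both strands for TTTGAA or TTCGAA as the CHR and for CCAAT, which can share 1 base where they abut. Of the 36 genes that fell, 30 had an entry, and Ccna2, Racgap1, Ube2c, Pbk, Foxm1 and Aurkb had none. The CHR letters stood in 22 of these 30 promoters (73.3%) and in 14.1% of the promoters of 11734 measured genes. The CCAAT letters stood in 24 of the 30, against 37.3%, and both stood in 19 (63.3%), against 5.76%. The shares over all 44 measured list members with an entry were 77.3% for the CHR and 79.5% for CCAAT. In 32 promoters of measured DNA replication genes they were 18.75% and 62.5%. A match of letters is a description and not a site shown to be bound. The stretches below run 5′ to 3′ on the gene's strand from base -145 to base 10 counted from the start in build GRCr8, with the CHR and CCAAT letters of either strand in capitals: Cdk1 at chr20:19265148-19265302 on the + strand, Ccnb2 at chr8:79981649-79981803 on the - strand, Ect2 at chr2:111966617-111966771 on the - strand, Cks2 at chr17:13727510-13727664 on the - strand, Hmmr at chr10:25665206-25665360 on the - strand and Aspm at chr13:53625439-53625593 on the + strand.
Cdk1: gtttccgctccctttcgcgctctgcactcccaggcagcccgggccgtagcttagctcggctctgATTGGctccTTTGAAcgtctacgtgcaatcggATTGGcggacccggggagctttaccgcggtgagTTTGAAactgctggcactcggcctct
Ccnb2: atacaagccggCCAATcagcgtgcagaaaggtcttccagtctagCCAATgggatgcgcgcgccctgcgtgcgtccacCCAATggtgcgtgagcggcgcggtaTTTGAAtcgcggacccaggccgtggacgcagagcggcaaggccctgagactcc
Ect2: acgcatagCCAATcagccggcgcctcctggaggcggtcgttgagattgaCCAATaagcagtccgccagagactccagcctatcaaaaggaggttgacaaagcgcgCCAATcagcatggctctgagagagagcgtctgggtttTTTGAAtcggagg
Cks2: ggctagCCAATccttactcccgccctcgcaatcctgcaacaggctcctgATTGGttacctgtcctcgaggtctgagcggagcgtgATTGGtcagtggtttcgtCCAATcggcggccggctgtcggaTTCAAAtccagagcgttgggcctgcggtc
Hmmr: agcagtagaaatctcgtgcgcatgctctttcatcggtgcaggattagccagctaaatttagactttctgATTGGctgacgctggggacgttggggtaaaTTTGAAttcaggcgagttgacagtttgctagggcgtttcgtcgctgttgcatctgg
Aspm: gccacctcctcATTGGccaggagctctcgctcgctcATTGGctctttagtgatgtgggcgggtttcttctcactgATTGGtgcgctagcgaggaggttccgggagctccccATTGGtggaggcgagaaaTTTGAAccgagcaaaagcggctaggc

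Among the cyclins and the kinase they activate, Ccna2, cyclin A2, read 5.12, 6.16, 5.90, 5.79 and 5.27 on the vehicle arrays and 4.03, 3.57, 3.12 and 3.98 at 1000 mg/kg. Every treated array was more than a log2 unit below the lowest vehicle array. The fall was -1.97 (95% interval -2.43 to -1.52), or 3.93-fold (limma adjusted p = 2.52e-05). Cdk1, the kinase that drives entry into mitosis, read 7.10, 7.81, 7.53, 7.28 and 6.99 with vehicle and 5.72, 5.69, 5.41 and 6.09 at 1000 mg/kg, again without overlap, and fell 3.06-fold (limma adjusted p = 4.71e-05). Its promoter, printed above, holds 2 copies of the CHR letters and 2 of CCAAT. Ccnb2, cyclin B2, read 6.77, 6.66, 6.69, 6.80 and 6.33 against 5.00, 5.14, 4.52 and 5.48, and fell 3.06-fold (limma adjusted p = 4.61e-05), with 3 CCAAT copies and 1 CHR copy in its printed stretch. Ccnb1, cyclin B1, fell by 1.10 on the log2 scale (limma adjusted p = 0.00125), and a second probe set of the gene changed by -1.45. Cks2, a small subunit that binds Cdk1, changed by -1.38, Cdkn3, a phosphatase that acts on cyclin-dependent kinases, by -1.92 and Foxm1, a transcription factor of late cell cycle genes, by -0.50, all called.

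Genes of the spindle checkpoint and of the anaphase-promoting complex formed a lower group. Bub1, Bub1b, Mad2l1 and Ttk, kinases and adaptors that hold cells until chromosomes are attached, changed by -0.98, -0.53, -0.50 and -0.99, all called. Cdc20, the activator of the anaphase-promoting complex, read 6.70, 7.19, 7.01, 7.10 and 7.03 with vehicle and 6.18, 6.40, 6.05 and 6.45 at 1000 mg/kg, a fall of 0.74 on the log2 scale (limma adjusted p = 0.00663). Of its other probe sets 1 was called lower and 3 were not, 2 of these with a positive change near 0. Ube2c, the ubiquitin-conjugating enzyme of that complex, fell by 1.01 and Pttg1, the securin it destroys, by 0.96. Securin showed little spread at 1000 mg/kg, 5.56 to 5.99, below all vehicle arrays at 6.48 to 6.98.

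At the kinetochore and on chromosomes, Spc25 changed by -1.13, Cenpf by -1.06 and Cenpe by -0.43. Aurka and Aurkb, the Aurora kinases, changed by -0.55 and -0.69, and Knstrn, a spindle protein also called kinastrin, by -1.23. Top2a, the topoisomerase that untangles sister chromatids, read 5.62, 6.50, 6.05, 6.12 and 5.69 with vehicle and 4.66, 4.84, 4.38 and 4.81 at 1000 mg/kg, and fell by 1.32 on the log2 scale (limma adjusted p = 5.5e-05). Mki67, the proliferation marker that coats mitotic chromosomes, read 5.78, 6.11, 6.08, 6.08 and 5.73 against 4.55, 4.14, 4.18 and 4.77, and fell by 1.54 (limma adjusted p = 3.14e-05). Neither gene had any overlap between the groups, and both ended at a low level. Limma no longer called Aurka without vehicle replicate 2, 3 or 4 or treated replicate 1, 2 or 3 (up to 0.155), Aurkb without vehicle replicate 2 or treated replicate 2 or 3 (up to 0.089) and Cenpe without treated replicate 3 (0.0766).

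Motor proteins and the machinery of cytokinesis moved the same way. The kinesins Kif20a, Kif2c, Kif23 and Kif22 changed by -1.42, -1.04, -1.02 and -0.98, and Prc1, which bundles the microtubules of the central spindle, by -1.53. Ect2, the exchange factor that starts the cleavage furrow, read 7.37, 8.01, 7.41, 7.51 and 7.15 with vehicle and 6.22, 5.95, 6.15 and 6.19 at 1000 mg/kg. The 4 treated arrays lay close together and below every vehicle array, and the fall was -1.36 (limma adjusted p = 2.12e-05). Racgap1, the partner of Kif23 in centralspindlin, changed by -0.90. The spindle proteins Hmmr, Aspm, Nusap1, Tacc3 and Dlgap5 changed by -1.24, -0.98, -0.95, -0.69 and -0.76, Cdca3 by -1.24 and the mitotic kinase Pbk by -1.15, all called. Among fits with 1 array left out, limma did not call Kif22 without treated replicate 3 (0.0672) and Dlgap5 without vehicle replicate 1 or 2 or treated replicate 2 or 3 (up to 0.153). A second probe set of Tacc3 was not called, with a change of 0.11.

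Some members of the list stood just outside the threshold. Birc5, survivin, changed by -0.40 (limma adjusted p = 0.0669), Nuf2 of the kinetochore by -0.55 (limma adjusted p = 0.0672), Smc2, a condensin subunit, by -0.50 (limma adjusted p = 0.0669) and Cenpw, a centromere protein, by -0.64 (limma adjusted p = 0.0799). The other probe set of Cenpw changed by -1.235 (limma adjusted p = 6.3e-05), with a mean of 3.06 at 1000 mg/kg. In all, 49 of the 50 measured genes had a negative change, against 55.5% of all genes, and 44 an unadjusted p under 0.05, against 13.3%. No detection calls were used, so low levels, here taken as under 4.75 at 1000 mg/kg, are not shown to be above background. This holds for 37 of the 148 lower genes and 3 of the 72 higher ones, among them Ccna2, Ccnb1, Bub1, Bub1b, Ttk, Kif2c, Hmmr, Top2a, Mki67, Cenpe, Cenpf, Aurka, Aurkb, Knstrn, Fam111a, Mfap4, Tlr4 and Igsf6. Because the samples are pieces of tissue, fewer dividing cells and less RNA per dividing cell cannot be told apart.

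**Figure D2:**
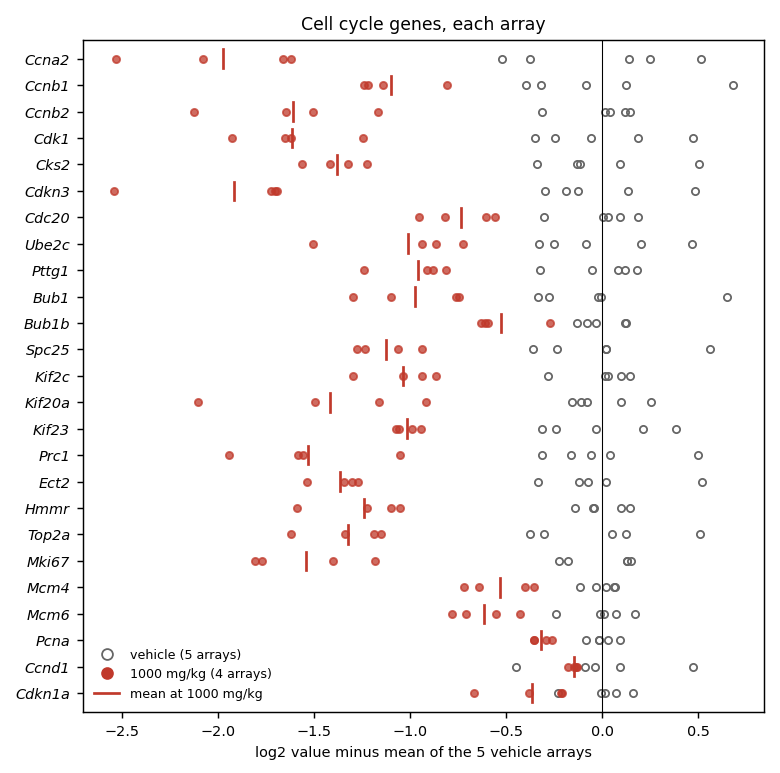
Log2 value of 25 cell cycle genes on each array minus the mean of the 5 vehicle arrays; open grey circles are vehicle arrays, filled red circles the 4 arrays at 1000 mg/kg and red bars their mean. Genes of mitosis lie well to the left, from Ccna2 at -1.97 to Bub1b at -0.53, Mcm4, Mcm6 and Pcna lie between -0.62 and -0.32, and the arrays of Ccnd1 and Cdkn1a overlap.

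Genes of DNA replication held fewer calls. Of 35 measured, 5 fell and none rose, against 1.04% of all genes called lower. A negative change was seen for 33 (31 with quantile normalization and 30 with centred arrays), against 55.5% of all genes, and the median was -0.23. Pcna, the sliding clamp of DNA polymerase, read 9.29, 9.47, 9.37, 9.41 and 9.37 with vehicle and 9.03, 9.12, 9.09 and 9.03 at 1000 mg/kg. The groups did not overlap although the fall was only 1.25-fold (limma adjusted p = 0.00142). Mcm6, a subunit of the replicative helicase, read 6.05, 6.46, 6.36, 6.30 and 6.28 against 5.50, 5.86, 5.58 and 5.74 and fell 1.53-fold (limma adjusted p = 0.00357). The other called members were the helicase subunits Mcm4 (-0.53) and Mcm2 (-0.34) and Prim1, the primase catalytic subunit (-0.42), whose arrays overlapped because replicate 1 at 1000 mg/kg lay at 6.69. Prim1 was not called with quantile normalization or centred arrays. The limma threshold was missed by Mcm2 without vehicle replicate 1, 2, 3 or 4 or treated replicate 1, 3 or 4 (up to 0.155) and Prim1 without vehicle replicate 1, 2, 3 or 4 or treated replicate 2, 3 or 4 (up to 0.143). The count fell to 3 without any 1 of vehicle replicates 1 to 4 or of replicates 3 and 4 at 1000 mg/kg. Pclaf, a partner of Pcna outside the list, fell by 1.27 on the log2 scale (limma adjusted p = 0.000228). Among members not called, Gins1 changed by -0.40 (limma adjusted p = 0.0688), E2f1, a transcription factor of S phase genes, by -0.39 (0.104), Mcm7 by -0.26 (0.11) and Uhrf1 by -0.56 (0.116).

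Some further called genes linked to dividing cells were noticed after their values were seen. They were Fam111a (-1.08), a protease that acts with Pcna, the histones H2ax (-0.44) and H1f2 (-0.46), the tubulin Tubb5 (-0.61), Stmn1 (-0.43), which destabilises microtubules, and Lmnb1 (-0.44), lamin B1. A second probe set of H2ax changed by -0.18 (limma adjusted p = 0.695), and H2ax was not called with its probe sets averaged, with the vehicle and 1000 mg/kg arrays fitted alone, or when 7 kidney arrays rich in fat cell markers, more than 0.5 above the vehicle mean, were dropped. Stmn1 read 10.66 to 11.08 with vehicle and 10.23 to 10.51 at 1000 mg/kg. Not called by limma with 1 array left out were Stmn1 without treated replicate 1 (0.0577), H1f2 without treated replicate 3 (0.0613) and Lmnb1 without vehicle replicate 2 or 4 or treated replicate 1 or 3 (up to 0.108).

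Regulators of the G1 phase and of the response to DNA damage were not called. None of 18 measured G1 cyclins, kinases and inhibitors passed with limma, 5 had an unadjusted p under 0.05, against 13.3% of all genes, and the list median was -0.12. Ccnd1, cyclin D1, read 10.92, 10.38, 10.74, 10.79 and 11.30 with vehicle and 10.70, 10.69, 10.68 and 10.65 at 1000 mg/kg, within the range of the vehicle arrays (-0.15, limma adjusted p = 0.797). Ccnd2 changed by -0.36, Cdk4 by -0.16 and the inhibitor Cdkn2c by -0.23. None of 22 measured genes of DNA repair and p53 targets passed, 4 had an unadjusted p under 0.05, against the same 13.3%, and the median was -0.06. Cdkn1a, the p21 inhibitor induced by p53, read 6.2 to 6.59 with vehicle and 5.76 to 6.22 at 1000 mg/kg, overlapping (-0.37, limma adjusted p = 0.158). Mdm2 and Ccng1, which p53 also induces, changed by -0.07 and -0.03, Chek1, a checkpoint kinase, by -0.39 (limma adjusted p = 0.08) and Bard1 by -0.34 (0.104).

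Ptgs2, the inducible cyclooxygenase, showed the third largest fall among the genes without overlap. In the kidney it is made by the macula densa, by nearby thick limb cells and by interstitial cells of the medulla, and its prostaglandins act on renin release and blood flow. It read 5.74, 6.47, 7.12, 6.49 and 7.06 with vehicle and 4.29, 4.79, 4.98 and 5.08 at 1000 mg/kg. The vehicle arrays were widely spread, yet all lay above the treated arrays, and the fall was 3.46-fold (-1.79, 95% interval -2.27 to -1.31, limma adjusted p = 0.000109). Of the other 6 measured macula densa markers none was called. Nos1, the neuronal nitric oxide synthase of these cells, changed by -0.05, Pappa2 by 0.12, Robo2 by 0.07 and Ptges, a prostaglandin E synthase, by -0.0042. Ptgs1, the constitutive cyclooxygenase, changed by 0.08 (limma adjusted p = 0.87). No gene of the prostaglandin list other than Ptgs2 was called among 22 measured, against 1.55% of all genes called. With quantile normalization and centred arrays Cyp2j4, an arachidonic acid epoxygenase of that list, was also called, higher by 0.76 with RMA values (limma adjusted p = 0.0682). None of 19 measured genes of the renin, angiotensin and aldosterone system was called by limma. An unadjusted p under 0.05 was reached by 5 of them, against 13.3% of all genes.

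Other genes of inflammation changed less. Of 28 measured genes of the NF-kB and cytokine list, 2 fell, against 1.04% of all genes called lower. They were Ptgs2 and Tnfaip3, the A20 inhibitor of NF-kB. Tnfaip3 read 6.36, 6.65, 6.58, 6.50 and 6.29 with vehicle and 5.83, 5.88, 5.93 and 6.16 at 1000 mg/kg. The groups did not overlap, and the change was -0.53 (limma adjusted p = 0.00252). Nfkb2 changed by -0.31 (limma adjusted p = 0.117), the adhesion molecule Icam1 by -0.26 (0.262) and the chemokines Ccl5 and Ccl2 by -0.37 (0.225) and -0.73 (0.259). C3, the central complement protein, read 6.35 to 6.54 with vehicle and 5.55 to 6.21 at 1000 mg/kg and fell by 0.64 on the log2 scale (limma adjusted p = 0.0212). This was the only call among 15 measured genes of complement and the acute phase, against the same 1.04%. The adjusted p of C3 from limma exceeded the threshold without vehicle replicate 2 or 3 or treated replicate 2 or 3 (up to 0.116). Ier3, an immediate early gene, was called at -0.49 (limma adjusted p = 0.039), but its arrays overlapped and it was not called with quantile normalization or centred arrays. Without vehicle replicate 2, 3, 4 or 5 or treated replicate 1, 3 or 4 Ier3 was not called (limma adjusted p up to 0.141).

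Markers of macrophages and dendritic cells held 1 call. Of 20 measured, 1 fell and none rose, against 1.04% of all genes called lower. A negative change was seen for 18 (17 with quantile normalization and 15 with centred arrays), against 55.5% of all genes, 8 had an unadjusted p under 0.05 on the lower side, against 8.57%, and the median was -0.15. The list means were -0.15 to 0.18 on vehicle arrays and -0.41 to -0.23 at 1000 mg/kg, without overlap. Adgre1, the F4/80 marker of resident macrophages, read 6.25, 6.26, 6.13, 5.88 and 6.29 with vehicle and 5.43, 4.83, 5.35 and 5.83 at 1000 mg/kg. Replicate 4 at 5.83 was close to the lowest vehicle array at 5.88, and the change was -0.80 (limma adjusted p = 0.0218). Adgre1 was not called by limma when vehicle replicate 2 or treated replicate 2 or 3 was left out (up to 0.0995). The colony-stimulating factor receptor Csf1r changed by -0.34 (limma adjusted p = 0.077), the Fc receptor Fcgr2b by -0.65 (0.12), the mannose receptor Mrc1 by -0.44 (0.216) and the complement component C1qa by -0.26 (0.288). None of 19 lymphocyte markers and none of 10 markers of neutrophils and mast cells passed with limma. At an unadjusted p under 0.05 were 2 and 1 of them, against 13.3% of all genes. Cd3e, of T cells, changed by -0.08 and Prf1, the perforin of cytotoxic cells, by -0.41 (limma adjusted p = 0.2).

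A few called genes of innate immunity outside these lists were chosen after their values were seen. Tlr4, the receptor for bacterial lipopolysaccharide, read 4.92, 5.07, 5.11, 4.90 and 5.02 with vehicle and 4.41, 4.62, 4.46 and 4.24 at 1000 mg/kg, a change of -0.57 (limma adjusted p = 0.00142). Its mean at 1000 mg/kg was under 4.75, so this change is between levels of which the lower is not shown to be above background. Cxcl16, a chemokine bound to the cell membrane, changed by -0.71, Cybb, a subunit of the phagocyte oxidase, by -0.42, and Igsf6, an immunoglobulin family receptor, by -0.43. The limma threshold was missed by Cxcl16 without treated replicate 3 (0.0777) and Cybb without vehicle replicate 2, 3 or 4 or treated replicate 1, 2 or 3 (up to 0.089). The 4 genes are expressed by myeloid cells and in part by others, and which cells of the kidney changed was not tested.

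Lists of stroma and extracellular matrix held few calls. All 18 measured fibroblast markers had a negative change, against 55.5% of all genes, and the median was -0.32. Of the 18, 1 was called, against 1.04% of all genes called lower, and 7 had an unadjusted p under 0.05, against 8.57%. With quantile normalization 17 and with centred arrays 15 of the 18 were negative. The list means were -0.19 to 0.17 on vehicle arrays and -0.53 to -0.29 at 1000 mg/kg. Mfap4, a protein of elastic microfibrils, read 5.55, 6.24, 6.46, 6.02 and 6.29 with vehicle and 4.79, 4.64, 4.45 and 5.03 at 1000 mg/kg. The groups did not overlap, and the fall was 2.62-fold (limma adjusted p = 0.0127, and 0.071 without replicate 3 at 1000 mg/kg). Its mean at 1000 mg/kg is under 4.75, a level not shown to be above background. Dpt, dermatopontin, changed by -0.45 (limma adjusted p = 0.0758), Loxl1, a lysyl oxidase, by -0.43 (0.0832), and the collagens Col1a1 and Col3a1 by -0.72 (0.117) and -0.65 (0.153).

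Of 22 measured fibrillar collagens and their enzymes 20 had a negative change (20 with quantile normalization and 19 with centred arrays), against 55.5% of all genes. An unadjusted p under 0.05 on the lower side was reached by 13 of them, against 8.57% of all genes, but none was called by limma. The nearest were Col6a1 (-0.48, adjusted p = 0.0504) and Col6a2 (-0.40, adjusted p = 0.0505), chains of the beaded collagen VI. Of 16 basement membrane genes 2 fell, against 1.04% of all genes, Col4a1 (-0.46), the main chain of collagen IV, and Sparc (-0.42), a collagen-binding protein. Sparc read 11.23, 11.28, 11.54, 11.40 and 11.05 with vehicle and 10.91, 10.88, 10.73 and 10.99 at 1000 mg/kg, and Col4a1 9.09 to 9.58 and 8.73 to 9.10. Sparc did not overlap between groups and Col4a1 did by 1 array. Of 29 genes of elastic fibres and matricellular proteins 2 fell, against the same 1.04%, Mfap4 and Emilin1 (-0.43), an elastic fibre protein, while Fbn1, fibrillin 1, changed by -0.54 (limma adjusted p = 0.077). Not called by limma with 1 array left out were Col4a1 without vehicle replicate 1, 3 or 4 or treated replicate 1, 2 or 3 (up to 0.109), Sparc without vehicle replicate 2, 3 or 4 or treated replicate 1, 2 or 3 (up to 0.128) and Emilin1 without vehicle replicate 1, 2, 3 or 4 or treated replicate 1, 2 or 3 (up to 0.153). Emilin1 was also not called with quantile normalization, and Col6a2 was called there.

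Other stromal or vascular genes were noted after their values were seen or stood just outside the threshold. Islr, a protein of mesenchymal cells, changed by -0.70, Pxdn, a peroxidase that links collagen IV, by -0.45, Thbd, the endothelial thrombomodulin, by -0.57 and Apln, the apelin ligand, by -0.74, all called. With 1 array left out, limma no longer called Islr without treated replicate 3 (0.0733), Pxdn without treated replicate 3 (0.0539) and Apln without treated replicate 2 or 3 (up to 0.0819). Sfrp2, a secreted Wnt antagonist, read 7.76, 7.72, 8.67, 7.50 and 7.59 with vehicle and 6.2, 7.16, 6.12 and 6.58 at 1000 mg/kg, without overlap, but was not called (-1.33, limma adjusted p = 0.0576). Bmp4, a morphogen of the same tissue, stood on the other side at 0.61 (limma adjusted p = 0.054) and was called with quantile normalization and centred arrays. Of the other probe sets of Thbd 1 had a positive change of 0.33 that was not called.

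None of 16 endothelial markers passed with limma, and 3 had an unadjusted p under 0.05, against 13.3% of all genes. A negative change was seen for 14 (13 with each other scaling), against 55.5% of all genes, with a median of -0.13. Pecam1 read 7.21 to 7.67 with vehicle and 7.21 to 7.43 at 1000 mg/kg. Kdr, the main receptor for VEGF, changed by -0.18, Plvap, of fenestrated endothelium, by -0.21 and Tie1 by -0.34 (limma adjusted p = 0.099). Of 16 markers of renin cells, mesangium and vascular smooth muscle 1 fell, against 1.04% of all genes called lower. This was Itga8, an integrin of mesangial cells. It read 6.10, 6.23, 6.24, 6.29 and 6.04 with vehicle and 5.83, 5.74, 5.85 and 5.66 at 1000 mg/kg, a change of -0.41 without overlap (limma adjusted p = 0.00771). A second probe set of Itga8 changed by -0.14 (limma adjusted p = 0.81), and the gene was not called with its probe sets averaged or when the 7 arrays rich in fat cell markers were dropped.

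Markers of the nephron segments held few calls. Calls among the segment lists came to 1 of 19 early proximal, 1 of 18 late proximal and 1 of 7 macula densa markers, and none of 9 thin limb, 10 thick limb, 10 distal and connecting tubule, 13 principal cell and 9 intercalated cell markers. Over all genes 0.506% were called higher and 1.04% lower. None of 10 podocyte markers was called. The counts at an unadjusted p under 0.05 in the lists without a call were 3, 0, 5, 1, 1 and 1 in that order, against 13.3% of all genes. Across the 20 lists of cell markers, 12 had no call.

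In the early proximal tubule the called gene was Slc2a2, the glucose transporter GLUT2 of the basolateral membrane. It read 10.15, 10.26, 10.54, 10.42 and 10.15 with vehicle and 9.64, 10.17, 9.66 and 9.60 at 1000 mg/kg. Replicate 2 at 1000 mg/kg lay within the vehicle range while the others lay below it (-0.53, limma adjusted p = 0.0295), and it was not called with centred arrays. The adjusted p of Slc2a2 from limma exceeded the threshold without vehicle replicate 2, 3 or 4 or treated replicate 1, 3 or 4 (up to 0.118). Slc5a2, the apical glucose carrier SGLT2, changed by -0.36 (limma adjusted p = 0.322), Slc7a7, an amino acid carrier, by -0.39 (0.324), Amn, the partner of cubilin, by -0.22 (0.149), Lrp2 by -0.05 and the water channel Aqp1 by 0.24 (0.185). Of the 19 markers 14 had a negative change (15 with quantile normalization and 13 with centred arrays), against 55.5% of all genes. The list means were -0.10 to 0.16 with vehicle and -0.23 to -0.05 at 1000 mg/kg, overlapping. At 1, 10, 100 and 500 mg/kg the list averaged -0.13, -0.19, -0.17 and -0.08, beside -0.14 at 1000 mg/kg. Set against 1, 10 and 100 mg/kg, 9 of the 19 were negative, with a median of 0.003.

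In the late proximal tubule the called gene was Cyp2e1, a cytochrome P450 that oxidises small alcohols and ethers. It read 10.42, 10.77, 11.13, 10.66 and 11.16 with vehicle and 11.41, 11.68, 11.79 and 11.46 at 1000 mg/kg. All treated arrays were above all vehicle arrays, 1.69-fold on average (limma adjusted p = 0.0329). Without vehicle replicate 1, 2 or 4 or treated replicate 2 or 3 Cyp2e1 was not called (limma adjusted p up to 0.14). The list median was 0.37, but its mean ran from -0.42 to 0.34 on vehicle arrays, which overlaps the 0.27 to 0.49 at 1000 mg/kg. Slc6a18, a neutral amino acid carrier, changed by 0.58 (limma adjusted p = 0.111), Slc16a9, a carnitine carrier, by 0.46 (0.199) and Slc7a9, the cystine carrier, by -0.35 (0.181).

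Distal markers held no call and changed in both directions. Of 10 distal and connecting tubule markers 7 had a negative change, against 55.5% of all genes, with a median of -0.17. At an unadjusted p under 0.05, 4 were lower and 1 higher, against 8.57% and 4.76% of all genes. That list averaged -0.13, -0.18, -0.215 and -0.12 at 1, 10, 100 and 500 mg/kg, beside -0.08 at 1000 mg/kg. Umod read 13.13, 13.09, 12.53, 12.82 and 13.17 with vehicle and 13.03, 12.98, 13.12 and 13.01 at 1000 mg/kg, and Slc12a1, the sodium, potassium and chloride cotransporter of the thick limb, changed by 0.41 (limma adjusted p = 0.553). Slc12a3, the thiazide-sensitive cotransporter, read 9.19 to 9.66 with vehicle and 8.97 to 9.08 at 1000 mg/kg, without overlap, and was not called (-0.41, limma adjusted p = 0.114). Calb1 and S100g, the calcium-binding calbindins of the distal tubule, changed by -0.52 (limma adjusted p = 0.208) and 0.90 (0.0553), and S100g was called with quantile normalization and centred arrays. In the collecting duct Aqp2 changed by -0.08, the sodium channel subunit Scnn1b by -0.16, the steroid dehydrogenase Hsd11b2 by -0.26, the chloride and bicarbonate exchanger Slc4a1 by 0.39 and Aqp6 by 0.31, none called. Nphs1 of podocytes changed by 0.07 and the podocyte transcription factor Tcf21 by -0.30 (limma adjusted p = 0.159).

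Genes of tubule injury were not called. Of 25 measured, 3 had an unadjusted p under 0.05, against 13.3% of all genes, and the median was 0.01. Havcr1, the injury marker KIM-1, read 3.84, 3.94, 3.77, 4.32 and 4.45 with vehicle and 3.52, 3.89, 3.84 and 3.58 at 1000 mg/kg, levels not shown to be above background. Lcn2, which encodes NGAL, changed by -0.06 and Clu, clusterin, by 0.06. Krt19, a keratin of collecting duct and injured tubules, read 7.83, 7.58, 6.71, 7.02 and 7.55 with vehicle and 8.39, 8.67, 8.56 and 7.86 at 1000 mg/kg. It was the member with the largest change, without overlap but not called (1.04, limma adjusted p = 0.0918).

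**Figure D3:**
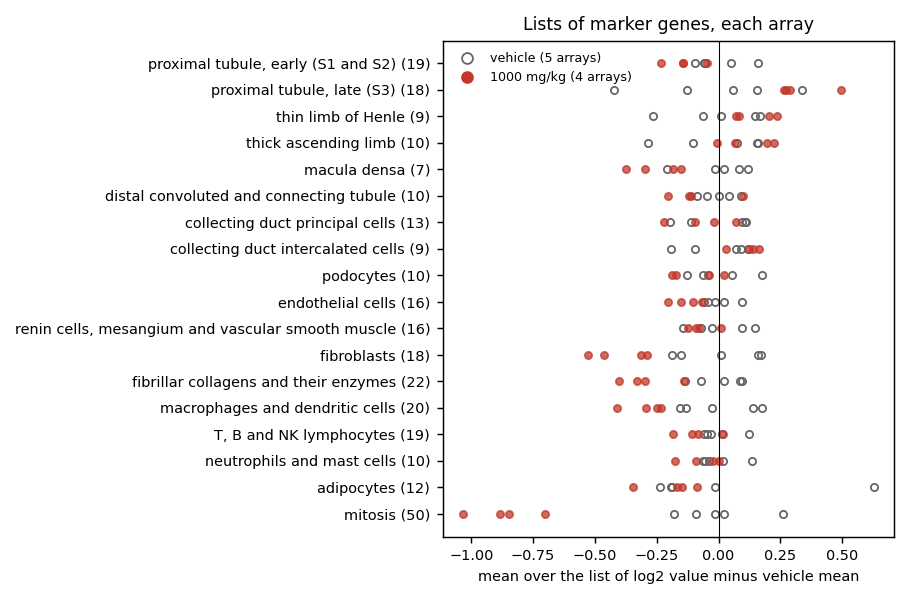
Mean over each list of the log2 value minus the vehicle mean, for every array; the number of measured genes is beside each list, open grey circles are the 5 vehicle arrays and filled red circles the 4 arrays at 1000 mg/kg. Fibroblasts (-0.53 to -0.29 at 1000 mg/kg) and macrophages (-0.41 to -0.23) lie left of all vehicle arrays, while the arrays of both groups overlap for the early and late proximal tubule.

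Among the rises, glutathione transferases formed the group with the largest share of calls. These enzymes join glutathione to electrophiles. Of 21 measured, 5 rose and none fell, against 0.506% of all genes called higher, and 11 had an unadjusted p under 0.05 on the higher side, against 4.76%. The list median was 0.20, the list means were -0.06 to 0.10 with vehicle and 0.24 to 0.40 at 1000 mg/kg, and 7 rose with quantile normalization and 8 with centred arrays, and 9 were called without vehicle replicate 5. Gstm1, of the mu class, read 7.78, 7.78, 8.18, 7.53 and 7.56 with vehicle and 8.65, 9.05, 9.16 and 9.03 at 1000 mg/kg. Every treated array lay above every vehicle array, and the rise was 2.31-fold (1.21, 95% interval 0.84 to 1.58, limma adjusted p = 0.000453). Gstm2 of the same class read 6.47, 6.48, 6.71, 6.26 and 6.42 against 6.92, 7.13, 7.48 and 7.13 and rose 1.62-fold (limma adjusted p = 0.00511). Mu class genes are close in sequence, and probes of one can pick up RNA of another. Gsta3, of the alpha class, read 6.65, 6.45, 5.96, 6.2 and 6.65 with vehicle and 7.17, 7.28, 7.31 and 7.41 at 1000 mg/kg, a rise of 1.88-fold (limma adjusted p = 0.00799).

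Gstz1, which also acts as the maleylacetoacetate isomerase of tyrosine breakdown, changed by 0.51 (limma adjusted p = 0.00556) and Mgst1, the microsomal enzyme, by 0.31 (0.0194). Mgst1 was not called by limma when vehicle replicate 3 or 4 or treated replicate 1, 3 or 4 was left out (up to 0.089). Gstp1 changed by 0.60 (limma adjusted p = 0.0599), Gstm5 by 0.72 (0.0661) and Gstt3 by 0.20 (0.136), of which Gstp1 was called with centred arrays and Gstm5 with both other scalings. The promoter of Gsta3 is shown because the antioxidant response element, the binding site of NRF2, is known from this gene family. The letters TGACNNNGC, searched on both strands, stood in 2 of the 5 promoters of called members and in 14.4% of the promoters of measured genes. The share over all 17 measured members with an entry was 35.3%. The 60 bases run from base -50 to base 10 at chr9:31154939-31154998 on the + strand in GRCr8, with these letters in capitals.
Gsta3: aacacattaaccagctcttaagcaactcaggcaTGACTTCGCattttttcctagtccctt
Other targets of NRF2 were not called, and none of 23 measured passed with limma. At an unadjusted p under 0.05, 5 were higher and 2 lower, against 4.76% and 8.57% of all genes. Nqo1, a quinone reductase, changed by 0.40 (limma adjusted p = 0.246), Gclc, of glutathione synthesis, by 0.43 (0.324) and Hmox1, heme oxygenase, by -0.68 (0.111).

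Some enzymes of amino acid breakdown rose, by small amounts. Of 53 measured genes of the list for amino acid breakdown and the urea cycle 7 rose and none fell, against 0.506% of all genes called higher. A negative change was seen for 12, against 55.5% of all genes. An unadjusted p under 0.05 on the higher side was reached by 25, against 4.76% of all genes, and the median was 0.16. The list means were -0.08 to 0.04 with vehicle and 0.17 to 0.24 at 1000 mg/kg. Of the called genes, Bhmt makes methionine from homocysteine and betaine, Dmgdh oxidises the dimethylglycine left over, Gnmt methylates glycine and Ahcy splits S-adenosylhomocysteine. Dmgdh read 9.30, 9.0, 9.34, 9.36 and 9.29 with vehicle and 9.62, 9.88, 9.63 and 10.0 at 1000 mg/kg, without overlap (0.53, limma adjusted p = 0.00364). Bhmt read 5.71, 5.30, 5.83, 5.72 and 5.29 against 6.27, 6.41, 6.44 and 6.98 and rose 1.94-fold (limma adjusted p = 0.047). Gnmt and Ahcy changed by 0.45 and 0.58, both called. Sardh, the next enzyme after Dmgdh, changed by 0.31 (limma adjusted p = 0.0788), Bhmt2 by 0.20 (0.0588), Hibadh, of valine breakdown, by 0.19 (0.0931) and Gamt, which makes creatine, by 0.45 (0.101).

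Hgd, homogentisate dioxygenase, and Gstz1 act one after another in the breakdown of tyrosine. Hgd read 10.78, 10.42, 10.57, 10.73 and 10.81 with vehicle and 11.04, 11, 11.36 and 11.04 at 1000 mg/kg, with no overlap (0.45, limma adjusted p = 0.0212). Prodh, proline dehydrogenase, changed by 0.50 (limma adjusted p = 0.0184). The calls were sensitive to single arrays: 7 became 2 without vehicle replicate 3 or replicate 3 at 1000 mg/kg, 3 without vehicle replicate 2 or replicate 2 at 1000 mg/kg and 4 without vehicle replicate 4, and 12 with centred arrays. Bhmt was not called when any 1 of the 9 arrays was left out (limma adjusted p 0.0643 to 0.124). Not called by limma with 1 array left out were Gnmt without vehicle replicate 2, 3 or 4 or treated replicate 2 or 3 (up to 0.0982), Ahcy without vehicle replicate 2 or 3 or treated replicate 1, 2 or 3 (up to 0.116) and Hgd without vehicle replicate 2 or 3 or treated replicate 3 (up to 0.119). Further lost calls were Prodh without vehicle replicate 3 or 4 or treated replicate 2 or 3 (up to 0.0906). A second probe set of Prodh had a change near 0 that was not called.

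Fatty acid oxidation and peroxisomal genes rose in part. PPAR alpha is the receptor that turns on many of these genes in liver and proximal tubule. The list of PPAR alpha targets and fatty acid oxidation, here the PPAR alpha list, also holds oxidation genes not chosen as targets. Of its 44 measured genes 5 rose and none fell, against 0.506% of all genes called higher. An unadjusted p under 0.05 on the higher side was reached by 15, against 4.76%, and the median was 0.11. Ehhadh, the peroxisomal bifunctional enzyme, read 10.09, 10.11, 10.09, 10.05 and 10.04 with vehicle and 10.85, 10.49, 10.80 and 10.99 at 1000 mg/kg. The vehicle arrays lay very close to each other and below every treated array, and the rise was 1.63-fold (limma adjusted p = 4.61e-05). Decr1, which prepares unsaturated fatty acids for oxidation in mitochondria, read 10.81, 10.83, 11, 10.88 and 10.93 against 11.41, 11.38, 11.45 and 11.41 and rose 1.44-fold (limma adjusted p = 0.0017). Cyp4a3, a fatty acid omega hydroxylase, changed by 0.40, Acadm, the medium-chain acyl-CoA dehydrogenase, by 0.28, and Ech1, an enoyl-CoA isomerase, by 0.29, all called without overlap. Vnn1, a pantetheinase, changed by 0.60 (limma adjusted p = 0.0716), Eci2 by 0.26 (0.0682) and Hadha by 0.22 (0.101). Without replicate 3 at 1000 mg/kg 3 of the list were called. With 1 array left out, limma no longer called Cyp4a3 without treated replicate 3 (0.0854), Acadm without vehicle replicate 3 (0.0551) and Ech1 without vehicle replicate 2 or 4 or treated replicate 1 or 3 (up to 0.0787).

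Of 32 measured peroxisomal genes 2 rose, against 0.506% of all genes called higher. They were Pxmp2, a membrane channel (0.26), and Slc27a2, an acyl-CoA synthetase (0.24). Amacr, a racemase of branched fatty acids, changed by 0.35 (limma adjusted p = 0.0524). Slc27a2 was not called with quantile normalization. Limma no longer called Pxmp2 without vehicle replicate 3 or 4 or treated replicate 2 or 3 (up to 0.0738) and Slc27a2 without vehicle replicate 1, 2, 3, 4 or 5 or treated replicate 2, 3 or 4 (up to 0.166). Hao1, a peroxisomal oxidase of glycolate, stood on the lower side, reading 7.15, 7.36, 7.61, 7.29 and 6.92 with vehicle and 5.86, 6.63, 6.18 and 6.78 at 1000 mg/kg (-0.90, limma adjusted p = 0.0871). Genes of the respiratory chain did not move with these, and changes lay between -0.12 and 0.15. None of 63 measured passed with limma and none had an unadjusted p under 0.05, against 13.3% of all genes. Aco1, cytosolic aconitase, was the only call among 22 genes of the citric acid cycle, against the same 0.506% (0.54, limma adjusted p = 0.0184), with overlapping arrays. The adjusted p of Aco1 from limma exceeded the threshold without vehicle replicate 2 or 4 or treated replicate 1, 3 or 4 (up to 0.0983).

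Further called enzymes and carriers rose singly. Sult1a1, a sulfotransferase of phenols, read 8.28, 7.90, 7.78, 7.55 and 7.94 with vehicle and 8.96, 8.47, 8.98 and 8.48 at 1000 mg/kg, 1.78-fold higher without overlap (limma adjusted p = 0.03). Papss2, which makes the sulfate donor, rose with it (0.44, limma adjusted p = 0.0223). These were the only calls among 27 genes of sulfation, glucuronidation, methylation and acylation, against 0.506% of all genes called higher. In that list Nat8, which acetylates cysteine conjugates, stood at 0.49 (limma adjusted p = 0.0501). Aldh1l1, which oxidises formyltetrahydrofolate, changed by 0.37 and Ttpa, the tocopherol carrier, by 0.96. Pck1, the rate-limiting enzyme of gluconeogenesis in the proximal tubule and a glucocorticoid target, read 12.93, 13.14, 12.82, 12.47 and 12.94 with vehicle and 13.51, 13.52, 13.29 and 13.19 at 1000 mg/kg, 1.43-fold higher without overlap (limma adjusted p = 0.0366). Fkbp5, another glucocorticoid target, changed by 0.78 (limma adjusted p = 0.117), with replicate 4 at 6.95 beside 8.09 to 8.36. Of 17 measured genes of the glucocorticoid list 2 rose, Pck1 and Sult1a1, against 0.506% of all genes called higher. The list median was 0.02, and 8 of the 17 had a negative change, against 55.5% of all genes. At an unadjusted p under 0.05, 5 were higher and 2 lower, against 4.76% and 8.57% of all genes. The limma threshold was missed by Sult1a1 without vehicle replicate 2, 3 or 4 or treated replicate 1 or 3 (up to 0.139), Papss2 without vehicle replicate 2 or 3 or treated replicate 3 (up to 0.124) and Ttpa without vehicle replicate 2, 3, 4 or 5 or treated replicate 1, 3 or 4 (up to 0.178). It also no longer called Pck1 without vehicle replicate 1, 3 or 4 or treated replicate 1, 2 or 3 (up to 0.128).

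The largest rises also held genes outside these pathways. Dmrtc1c1 read 10.01, 10.21, 9.09, 9.87 and 10.02 with vehicle and 11.11, 11.09, 11.39 and 11.02 at 1000 mg/kg, 2.48-fold higher (limma adjusted p = 0.000341). Gtpbp4, a GTPase of large ribosomal subunit assembly, read 7.54, 7.04, 6.71, 7.34 and 7.44 against 8.08, 8.26, 8.12 and 9.56. Replicate 4 lay far above the other treated arrays, though each was above all vehicle arrays. The change was 1.29 (limma adjusted p = 0.0188), and 0.94 (0.0544) without that array. Gtpbp4 was not called by limma when vehicle replicate 2 or 3 or treated replicate 4 was left out (up to 0.0643). It was the only call among 33 genes of ribosome biogenesis, against 0.506% of all genes called higher. Fam13c and Cracdl changed by 0.88 and 0.72, Dnase1, a secreted nuclease abundant in kidney, by 0.66, Nmrk1, a nicotinamide riboside kinase, by 0.66, Fhl1, a LIM domain protein, by 0.65 and Tfrc, the transferrin receptor, by 0.37, all called. With 1 array left out, limma no longer called Cracdl without vehicle replicate 2, 3 or 4 or treated replicate 2 or 3 (up to 0.153), Dnase1 without vehicle replicate 2, 3, 4 or 5 or treated replicate 1, 2 or 3 (up to 0.125) and Nmrk1 without vehicle replicate 3 or treated replicate 2 or 3 (up to 0.0934). Further lost calls were Tfrc without vehicle replicate 1, 2 or 3 or treated replicate 1, 3 or 4 (up to 0.119). Chosen after their values were seen, Upb1 (0.56), of pyrimidine breakdown, Iyd (0.54), a deiodinase of iodotyrosines, Retsat (0.54), a retinol saturase, Acsl3 (0.39) and Acad11 (0.27), of fatty acid activation and oxidation, Cyb5a (0.40), cytochrome b5, and Phyhd1 (0.34) were also called higher. Limma no longer called Retsat without vehicle replicate 2 or 3 or treated replicate 1, 2 or 3 (up to 0.0815), Acad11 without vehicle replicate 1, 2 or 4 or treated replicate 2, 3 or 4 (up to 0.188) and Phyhd1 without vehicle replicate 2 or treated replicate 1, 2 or 3 (up to 0.0635).

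**Figure D4:**
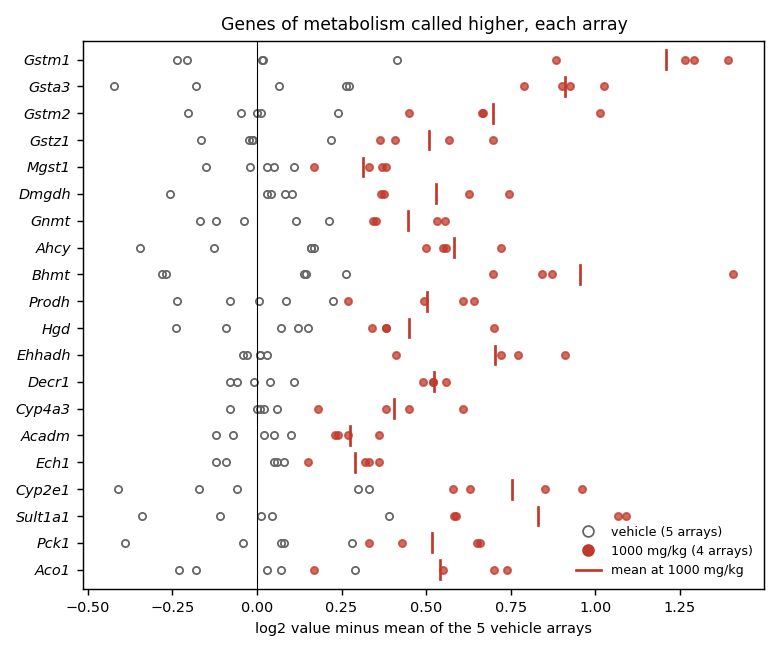
Log2 value of 20 called genes of metabolism on each array minus the mean of the 5 vehicle arrays; open grey circles are vehicle arrays, filled red circles the 4 arrays at 1000 mg/kg and red bars their mean. Gstm1 lies furthest right at 1.21 and Acadm least far at 0.28, and the groups overlap for Aco1.

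Several pathways had no called gene. The receptors CAR and PXR drive drug metabolism, and of 16 measured targets none passed with limma. An unadjusted p under 0.05 was reached by 3, against 13.3% of all genes, and Cyp2c11 stood at 1.34 (limma adjusted p = 0.219). Cyp1a1, the standard target of the aryl hydrocarbon receptor, varied widely, reading 8.76, 6.59, 5.29, 8.12 and 9.38 with vehicle and 9.38, 10.33, 10.74 and 8.54 at 1000 mg/kg (2.12, limma adjusted p = 0.186). Its arrays overlapped, and none of 9 targets of this receptor was called, with 3 at an unadjusted p under 0.05. With limma none of 35 genes of the unfolded protein and integrated stress response, 18 of heat shock, 21 of hypoxia, 31 of the proteasome, 21 of interferon or 20 of cholesterol synthesis was called. Of these lists 6, 3, 1, 1, 2 and 4 genes were at an unadjusted p under 0.05, against 13.3% of all genes. Of the 64 lists, 36 had no call.

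The 1000 mg/kg arrays were also set against the 12 kidney arrays at 1, 10 and 100 mg/kg, which shares the treated arrays with the first comparison but no control array. There 35 genes were higher and 102 lower, 0.964% in all, 0.246% and 0.717%. Of the 50 mitosis genes 31 were called lower with a median of -0.67. DNA replication held 3 lower calls. The glutathione transferase, amino acid metabolism and PPAR alpha lists held 2, 1 and 3 higher calls, beside 5, 7 and 5 against vehicle. Called in both comparisons were 26 of the 72 higher and 77 of the 148 lower genes, and all 220 kept their direction. Ccna2 changed by -1.45 (limma adjusted p = 0.000304), Cdk1 by -1.15 (0.000535), Ect2 by -0.90 (0.000304) and Ptgs2 by -1.47 (0.000311). Among the rises Gstm1 changed by 1.10 (limma adjusted p = 0.00035), Ehhadh by 0.62 (0.000203), Cyp2e1 by 0.87 (0.00544) and Decr1 by 0.34 (0.0255). For others the change was smaller and not called: Mfap4 -0.95 (limma adjusted p = 0.071), Gsta3 0.61 (0.0608), Adgre1 -0.63 (0.0516), Sult1a1 0.42 (0.319), Bhmt 0.54 (0.296), Hgd 0.18 (0.441) and Slc2a2 -0.10 (0.831). Vnn1 was called here (0.83, limma adjusted p = 0.00355). The count was 35 without replicate 3 at 1000 mg/kg, 66 and 71 without replicates 1 and 2, and 32 without the arrays high in adipocyte markers.

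Levels at the doses between place the top dose in a series. The mean of the mitosis list lay at -0.08 ± 0.16 (SD, n = 4) at 1 mg/kg, -0.24 ± 0.15 (n = 4) at 10, -0.36 ± 0.19 (n = 4) at 100, -0.50 ± 0.16 (SD, n = 3) at 500 and -0.87 ± 0.14 (SD, n = 4) at 1000 mg/kg, from a vehicle mean of 0 ± 0.16 (SD, n = 5). Each step between neighbouring doses up to 500 mg/kg was within the spread of the arrays. The arrays at 1000 mg/kg, -1.03 to -0.70, lay below those at 500 mg/kg at -0.69 to -0.39. Set against vehicle, at -0.18 to 0.26, the arrays at 100 mg/kg, -0.60 to -0.20, and those at 500 mg/kg were already lower without overlap. Ptgs2 averaged 6.57, 6.51, 6.17, 6.07, 5.87 and 4.78 from vehicle to 1000 mg/kg. Gstm1 averaged 7.76 with vehicle, 7.90, 7.83 and 7.87 at 1 to 100 mg/kg, 8.42 at 500 and 8.97 at 1000 mg/kg. Ehhadh followed the same order of levels, with 10.08, then 10.13 to 10.18, then 10.50 and 10.78. The PPAR alpha list that holds it did not rise further at the top dose. That list averaged 0.02, 0.08 and 0.04 at 1, 10 and 100 mg/kg, 0.14 at 500 and 0.12 at 1000 mg/kg. The peroxisome list was already at 0.06 to 0.09 at 1 to 500 mg/kg, beside 0.10 at 1000 mg/kg. The glutathione transferase list stood at 0.10 to 0.11 at 1 to 100 mg/kg, 0.18 at 500 and 0.32 at 1000 mg/kg, and its lowest array at 1000 mg/kg, 0.24, was above its highest at 500 mg/kg, 0.21. Fibroblast markers averaged -0.19 ± 0.35 (SD, n = 3) at 500 and -0.40 ± 0.12 (SD, n = 4) at 1000 mg/kg, whose arrays overlap. The late proximal list was already at 0.20 to 0.32 at 1 to 500 mg/kg, beside 0.33 at 1000 mg/kg.

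**Figure D5:**
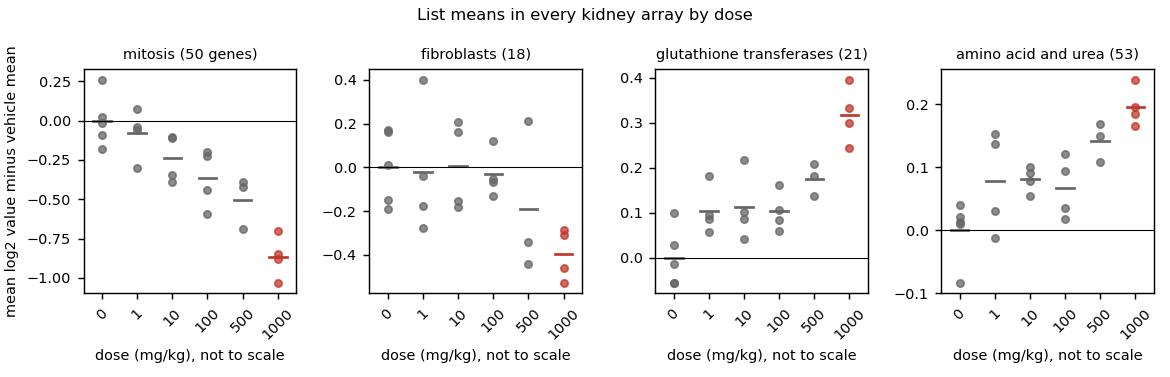
Mean over each list of the log2 value minus the vehicle mean for every kidney array (y axis) by dose in mg/kg (x axis, not to scale), for mitosis, fibroblasts, glutathione transferases, and amino acid and urea metabolism; points are arrays, bars group means, and red marks 1000 mg/kg. The mitosis means step down from 0 to -0.87, the glutathione transferases rise from 0 to 0.32, and fibroblast arrays scatter around 0 up to 100 mg/kg.

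Markers of fat cells varied among the kidney arrays and are given because they can move with stromal results. The mean of 12 measured adipocyte markers deviated by 0.63 on vehicle replicate 4 and by -0.24 to -0.01 on the other vehicle arrays, by -0.35 to -0.09 at 1000 mg/kg, and by 0.69 to 2.05 on 6 arrays at 1 to 500 mg/kg. Of the 12 only Pck1, also a proximal tubule gene, was called, against 1.55% of all genes. Fabp4, the fatty acid binding protein of adipocytes, read 6.87, 6.91, 8.01, 9.15 and 6.83 with vehicle and 6.54, 6.13, 6.88 and 5.54 at 1000 mg/kg, Adipoq, adiponectin, 4.96 to 6.67 and 4.92 to 5.28, and Plin1, perilipin, 3.85 to 4.19 and 3.89 to 4.10. Fabp4 and Adipoq peak on vehicle replicate 4, and no defining marker was called. Without the 7 arrays more than 0.5 above the vehicle mean, 31 genes were higher and 78 lower, 100 of the 220 among them. With the marker mean as a covariate in place of leaving arrays out, 55 were higher and 123 lower, 177 of the 220 among them. Of 108 called genes named in the text, 43 lost their call without the arrays and 8 with the covariate. Of the fibroblast, macrophage, fibrillar collagen and PPAR alpha results, the part played by fat tissue was not tested.

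Genes with several probe sets were given by 1 of them, and the others often differed. The 30 called genes of the text with another probe set had 37 such probe sets, of which 8 were called in the same direction, 29 were not called and 5 had the opposite sign. With all probe sets of a gene averaged, 12 of the 108 called genes lost their call: Tacc3, H2ax, Thbd, Cybb, Sparc, Itga8, Apln, Papss2, Prodh, Bhmt, Tfrc and Ttpa.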

How the data were processed

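Total RNA of each tissue piece was labelled as biotin cRNA and hybridised to Affymetrix Rat Genome 230 2.0 arrays, per the labels' protocols. The authors deposited RMA log2 values for 31099 probe sets; no source used here says whether kidney and liver arrays were normalized together. Sample titles set the groups. Control probe sets (57) were left out, probe sets were named from the platform annotation and updated through Entrez identifiers, and 20826 had 1 symbol, 436 several and 9780 none. Each of 14217 genes was represented by its brightest probe set, judged by the mean of the 49 arrays. limma 3.58.1 in R 4.3.3 was fitted to all 24 kidney arrays with 1 mean per dose, and the 1000 mg/kg mean was set against vehicle and against the mean of 1, 10 and 100 mg/kg. P-values were adjusted by the Benjamini-Hochberg method over all genes. The members and gene lists were chosen with earlier results of these data known. Named genes are the 15 largest rises and falls among called genes without overlap, the called list members, and in each described list up to 4 uncalled members of smallest p and its opening members; others are said to be chosen after their values were seen. On simulated data of 14217 genes, 68% of 100 changes of 0.5 and 98% of 100 changes of 1 were called, with 14 false among 180 calls. These values were drawn independently for each gene and array, with the real means and residual spread. They hold no shift shared by the genes of an array, so the rates need not hold for the real arrays. The number of arrays limits the precision. Alternatives tried were averaged probe sets, only the brighter genes, quantile normalization, median centring, a robust variance trend, array weights, a replicate block, the compared groups alone, adipocyte markers as a covariate or a filter, and leaving out each array. Promoter sequences are from RefSeq.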

Additional observations from a re-analysis of the deposited data

Results flagged for a closer look

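In 22 of 406 groups of arrays tested, 1 array stood far from the others of its group (Dixon's test), where chance alone gives about 20.3 at 1 in 20. Among cell cycle genes Cdkn3 read 4.679 on replicate 3 at 1000 mg/kg, beside 5.497 to 5.53 on the other treated arrays. Ccnb2 read 6.335 on vehicle replicate 5 (others 6.663 to 6.796) and Arhgap11a 6.953 on vehicle replicate 2 (others 6.416 to 6.571). At 1000 mg/kg replicate 4 was highest for Bub1b at 3.789 (others 3.432 to 3.466) and Tubb5 at 8.087 (others 7.678 to 7.732), and replicate 1 for Prim1 at 6.69 (others 6.324 to 6.383).

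Among markers of cells and of inflammation, Nos1 was 4.7 on vehicle replicate 2, Pappa2 4.503 and Scnn1b 7.16 on vehicle replicate 1, Cybb 8.269 on vehicle replicate 5, and Slc7a7 11.91 and Sfrp2 8.668 on vehicle replicate 3. At 1000 mg/kg Icam1 was 7.178, Lrp2 12.35 and Slc12a3 9.078 on replicate 1, Slc2a2 10.17 on replicate 2 and Slc4a1 7.932 on replicate 3.

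Among genes of metabolism and the other rises, Gtpbp4 was 9.56 on replicate 4 at 1000 mg/kg, far above 8.081 to 8.259 on the others. Dmgdh was lowest on vehicle replicate 2 at 8.997, and Hgd highest on replicate 3 at 1000 mg/kg at 11.36. Replicate 4 at 1000 mg/kg was lowest for Fhl1 at 8.834 and Gamt at 10.04.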

How the results depend on the processing

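None of the 108 called genes named in the text changed sign under the alternatives run, but with centred arrays the higher calls (138) outnumbered the lower (107). The total of 220 genes was 361 with the replicate block, 110 in the groups fitted alone and 109 without arrays high in adipocyte markers. The 72 higher genes were 138 with centred arrays, 131 with the block, 30 in the groups alone and 31 without the adipocyte-high arrays, and the 148 lower genes were 230, 80 and 78 in the last 3 of these. Leaving out each array gave 97 to 329 in all, 24 to 112 higher and 73 to 217 lower. Against 1 to 100 mg/kg the 137 genes were 90 among the brighter genes, 32 without adipocyte-high arrays, 75 with the adipocyte covariate and 35 to 193 with an array left out. Among the brighter genes, where fewer members are tested, mitosis had 5 calls, DNA replication 3 and glutathione transferases 8. DNA replication had 3 without adipocyte-high arrays, glutathione transferases 8 with centred arrays and 9 with the block. Amino acid metabolism had 12 with centred arrays, 12 with the block, 4 in the groups alone and 3 without adipocyte-high arrays, and the PPAR alpha list 2 in each of the last pair. With an array left out the counts were 32 to 37 for mitosis, 3 to 5 for DNA replication, 4 to 9 for glutathione transferases, 2 to 9 for amino acid metabolism and 3 to 6 for the PPAR alpha list. Apart from the brighter genes and the smaller sets of arrays, the cause was not tested. The labels do not say whether a replicate number stands for anything shared between samples. Deviations of same-numbered vehicle and 1000 mg/kg arrays correlated at 0.0262, -0.118, -0.0771 and 0.109, and those of differently numbered arrays at up to 0.263. These few correlations cannot tell whether same-numbered samples shared a factor across doses, which was not tested. Of 108 called genes named in the text, 45 lost their call without replicate 3 at 1000 mg/kg and 43 without adipocyte-high arrays. With the compared groups fitted alone 41 lost it, and with quantile normalization 4. Dim probe sets, not shown to be above background, limit the mitotic genes.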
